A study of Homo sapiens with 29 samples.

Results

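The histone genes measured in this series number 42 of 13492 genes in the expression table. They were chosen by symbol alone: 31 genes whose symbol begins with HIST and a digit, the clustered or canonical histones, and 11 genes whose symbol begins with H1F, H2AF or H3F, here called variant genes. By symbol, the clustered genes comprise 2 of the linker histone family H1, 6 H2A, 10 H2B, 5 H3 and 8 H4 genes. The variant genes comprise 2 H1, 6 H2A and 3 H3 genes. HIST2H2BC, counted among the H2B genes, has no entry in GENCODE 29, so a protein product was not shown. Of the 42, 41 passed the filter on low values (at least 1 CPM in at least 5 libraries). HIST1H2BF, at a mean of 0.631 CPM, did not pass and was not tested.

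The series sequenced polyA RNA of tumors grown in mice from COLO320DM, an established line of human colorectal adenocarcinoma with amplified MYC. Tumors carry the time label 48 h and fall into 4 groups: vehicle with 10 libraries, Helicon4neg at 30 mpk with 8, Helicon4 at 30 mpk with 6 and Helicon4 at 100 mpk with 5. The labels use mpk as the unit of dose. Helicon4 is a helicon, a stabilised helical peptide, directed at the complex of β-catenin with TCF transcription factors, and Helicon4neg is the second compound of the series; the labels give neither structure. The replicate numbers are the sole sign that libraries of a group came from separate animals, so the p-values below measure the spread between these libraries.

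Each nucleosome wraps DNA around pairs of H2A, H2B, H3 and H4 proteins, and H1 binds the linker DNA. Clustered histone genes are transcribed mainly during S phase, and their mRNAs usually end just after a stem-loop bound by the protein SLBP, with no polyA tail; polyadenylated transcripts that run past the stem-loop are also known, and accumulate in cells that leave the cell cycle and differentiate. Most variant genes lie outside the clusters, have introns in many cases, are expressed through the cell cycle and give ordinary polyadenylated mRNAs. Of those studied here, H2AFJ (chromosome 12, 14774383 to 14778002) lies near HIST4H4 (14767999 to 14771131), and H2AFX holds a stem-loop. A polyA library therefore samples the clustered genes by their polyadenylated transcripts.

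The stem-loop is shown first because it defines the usual end of these mRNAs. GENCODE 29 transcripts were searched for the histone stem-loop consensus, a stem-loop of 16 bases with arms of 6 and a loop of 4. It was found in 23 of the 31 clustered genes and in 1 variant gene, H2AFX. A gene without a match is not shown to lack the stem-loop. The only transcripts of HIST1H4K, HIST1H2BK, HIST2H2AC and HIST2H3D, of 312, 381, 390 and 411 bases, may end before it. In the sequences below, written as DNA, capitals mark the arms that pair and lower case the loop.
12 genes, among them HIST1H2AC, HIST2H2BE and HIST2H3A: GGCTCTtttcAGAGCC
4 genes, HIST1H4E, HIST1H4H, HIST1H4J and HIST4H4: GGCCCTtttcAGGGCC
3 genes, HIST1H4I, HIST2H4A and HIST2H4B: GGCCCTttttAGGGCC
2 genes, HIST1H2BD and HIST1H2BF: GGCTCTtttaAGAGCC
HIST1H3E: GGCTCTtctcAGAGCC
HIST1H2AG: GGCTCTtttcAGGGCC
H2AFX: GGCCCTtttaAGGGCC
In 19 clustered genes at least 1 annotated transcript ran 212 to 1917 bases past this stem-loop. In the other 12 genes, transcripts with a match ended within 39 bases of it, or no transcript held a match. HIST2H2BC had no GENCODE 29 transcript. Transcripts without a match were not measured. HIST1H2BD has 1 match among 2 transcripts of at most 789 bases, yet its gene spans 26158146 to 26171349 on chromosome 6. HIST1H2BJ, with no match and transcripts of at most 950 bases, spans 27125897 to 27132750. Spliced transcripts that skip the match may therefore reach further in these genes.

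Promoters are shown for 3 clustered genes that rose with Helicon4 and for H2AFZ, a variant gene that fell, as examples of members called in each direction. They hold the 250 bases before the annotated start in RefSeq (GRCh38.p14), on the strand of the gene, with capitals for the CCAAT box, the TATAAA box and the ATTTGCAT octamer on either strand.
HIST1H2AC, chr6:26123922-26124171, plus strand: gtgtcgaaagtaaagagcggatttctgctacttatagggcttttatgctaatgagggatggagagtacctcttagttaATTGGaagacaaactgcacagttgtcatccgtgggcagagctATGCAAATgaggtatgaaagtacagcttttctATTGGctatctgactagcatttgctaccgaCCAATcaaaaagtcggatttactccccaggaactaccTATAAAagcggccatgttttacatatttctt
HIST1H2BD, chr6:26157871-26158120, plus strand: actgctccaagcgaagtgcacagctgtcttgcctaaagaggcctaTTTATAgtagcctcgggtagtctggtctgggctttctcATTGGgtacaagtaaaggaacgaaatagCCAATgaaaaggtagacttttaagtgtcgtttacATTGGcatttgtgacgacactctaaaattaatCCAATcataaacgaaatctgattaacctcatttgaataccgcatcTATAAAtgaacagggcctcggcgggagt
HIST2H2BE, chr1:149886683-149886932, minus strand: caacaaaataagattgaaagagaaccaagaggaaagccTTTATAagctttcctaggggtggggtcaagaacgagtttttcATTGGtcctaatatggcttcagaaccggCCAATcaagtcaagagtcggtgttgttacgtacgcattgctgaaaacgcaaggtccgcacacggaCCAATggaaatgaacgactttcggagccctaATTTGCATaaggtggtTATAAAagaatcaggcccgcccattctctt
H2AFZ, chr4:99950276-99950525, minus strand: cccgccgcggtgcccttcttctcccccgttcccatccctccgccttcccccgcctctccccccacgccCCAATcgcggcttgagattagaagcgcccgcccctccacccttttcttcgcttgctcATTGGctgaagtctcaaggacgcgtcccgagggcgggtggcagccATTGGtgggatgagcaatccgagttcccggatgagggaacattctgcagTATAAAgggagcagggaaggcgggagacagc
RefSeq promoters were matched for 38 members, 30 clustered and 8 variant, and motifs were searched on both strands of windows of 300 bases (250 before to 50 after the start). CCAAT was present in 23 of the 30 clustered promoters and in 5 of the 8 variant ones, against 35.7% of 27305 promoters. TATAAA was present in 19 of the 30 clustered and 3 of the 8 variant promoters, against 12% of all. The octamer ATTTGCAT, known from H2B promoters, was present in 6 of 9 clustered H2B promoters, in 9 of the 30 clustered promoters and in 0 of the 8 variant ones, against 1.8% of all. CTTTGA, a core of TCF sites, was present in 3 of the 30 clustered promoters (HIST1H2BG, HIST2H2AA3 and HIST2H2AA4) and 0 of the 8 variant ones, against 13.1% of all. These are matches of letters in a window, not binding sites.

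Levels are given in CPM as the authors scaled them. A fold change is the difference between group means on the log2(CPM + 1) scale, so that it understates the change of a gene near 1 CPM. They were tested with limma over 13373 genes, and a gene is said to rise or fall where the two-sided p adjusted by Benjamini-Hochberg was under 0.05. Depths recovered from the values were 26.8 to 61.6 M reads per library (M, mega). Transcript levels of AXIN2, NKD1 and DKK4, targets of β-catenin and TCF, fell at both doses of Helicon4 (log2 fold changes of -0.86, -1.94 and -4.88 at 100 mpk and -0.35, -1.32 and -4.83 at 30 mpk), and 0 of these 3 passed the test with Helicon4neg. All comparisons with vehicle share the same 10 vehicle libraries. Groups that do not overlap are described for single genes only, since such genes were not counted over the whole table. The line's markers were present, MYC at a mean of 5244 CPM in vehicle. Helicon4neg library 2 and vehicle library 6 stood apart in the relation of expression to gene length (slopes of -0.32 and -0.19), and counts without both are given below. Vehicle libraries 4 and 8 came next, at -0.135 and -0.13. The slope also differed between groups. Its mean was -0.04 ± 0.085 (SD) in vehicle, -0.007 ± 0.133 with Helicon4neg, 0.043 ± 0.055 at 30 mpk and 0.039 ± 0.054 at 100 mpk of Helicon4. Titles of the libraries carry 1 of 7 codes whose meaning is not given, and no code held both vehicle and Helicon4 libraries. Vehicle and Helicon4 are therefore linked within codes only through Helicon4neg libraries, and the 100 mpk group only through those at 30 mpk. Values of a fit with the code as a block are given beside the counts.

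Per kb of deposited length, the median of the variant genes was above that of the clustered genes. H1F0, a linker histone of differentiated cells, had a mean of 262 CPM per kb over the 29 libraries, followed by H2AFZ, which encodes H2A.Z, at 202.5, H1FX at 174, H3F3A at 170.3 and H3F3B at 105 CPM per kb. H3F3A and H3F3B both encode H3.3, the replication-independent H3. The order of these 5 depends on the length used: the deposited length of some genes exceeds every GENCODE 29 transcript, and per kb of the longest transcript H3F3A was at 287.5, H1F0 at 262, H2AFZ at 248, H3F3B at 230.1 and H1FX at 174 CPM. The median was 87.1 CPM per kb over the 11 variant genes and 3.62 over the 31 clustered genes, whose highest were HIST1H2BK at 36.2, HIST2H4A at 30.2 and HIST2H4B at 29.1 CPM per kb of deposited length.

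In sum, transcripts of the clustered genes were at 208 to 352 CPM in the vehicle libraries (median 256), 231 to 324 with Helicon4neg (median 274.5), 269 to 358 with Helicon4 at 30 mpk (median 321) and 364 to 477 at 100 mpk (median 413). Every library of the 100 mpk group lay above every other library, whereas the 30 mpk range overlapped that of vehicle. That separation includes both copies of HIST2H4A and HIST2H4B and of HIST2H3A and HIST2H3C, pairs of identical copies. With each pair counted once, the range at 100 mpk was 280.3 to 374.9 CPM. It then overlapped those of vehicle (170.6 to 281.6) and 30 mpk (214.2 to 282.7). Without HIST2H4A it also overlapped both, at 285.6 to 378.9 against 173.9 to 285.8 and 219.1 to 286.9 CPM. Transcripts of the variant genes summed to 2950 to 4436 CPM with vehicle, 2777 to 4811 with Helicon4neg, 2943 to 3320 with Helicon4 at 30 mpk and 2712 to 3703 at 100 mpk, ranges that overlap throughout. The clustered share of all histone CPM was 6.05 to 9.05% in vehicle and 10.5 to 14.2% at 100 mpk. These sums were not tested, since they are scores over the members.

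**Figure D1:**
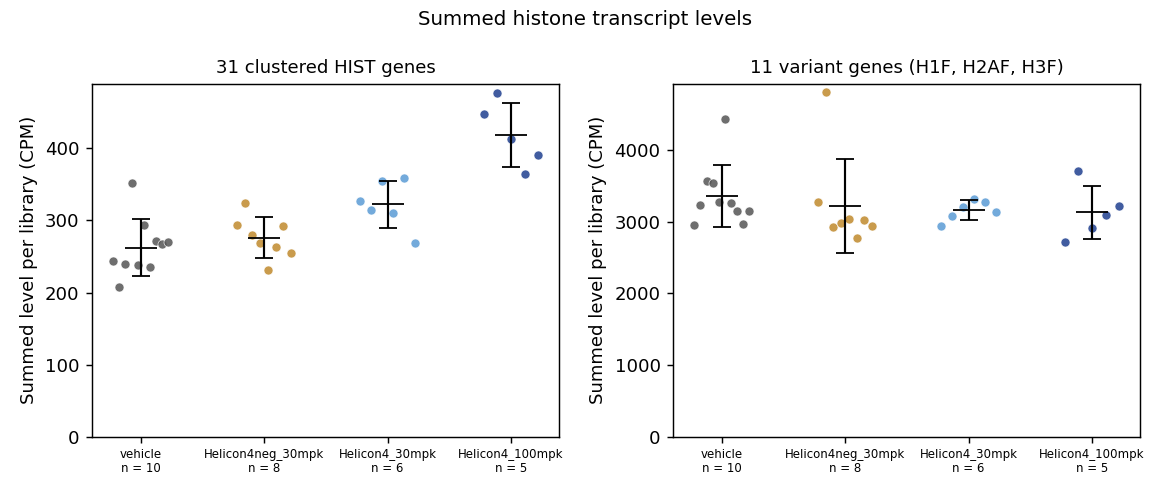
Summed level in CPM of the 31 clustered genes (left) and the 11 variant genes (right) in each library, by treatment group; points are libraries, and black bars are the mean and SD. The 5 libraries of Helicon4 at 100 mpk span 364 to 477 CPM for the clustered genes and lie above all others, while the groups overlap for the variant genes. The clustered sums hold both copies of HIST2H4A and HIST2H4B and of HIST2H3A and HIST2H3C. With each pair counted once, the 100 mpk range overlaps those of vehicle and 30 mpk.

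With Helicon4 at 100 mpk, 18 of 30 tested clustered genes rose against vehicle and 1 fell, where 30.2% of all genes tested passed the test, 14.3% higher and 15.9% lower. Of the 11 variant genes, 1 rose and 2 fell. The median log2 fold change was 0.48 over the clustered genes, -0.155 over the variant genes and 0.01 over all genes. By family, the genes that rose were 2 of 6 clustered H2A, 7 of 9 H2B, 4 of 5 H3, 4 of 8 H4 and 1 of 2 H1 genes. By position, they were 11 of 16 genes of the HIST1 cluster (chromosome 6, 26055787 to 27865798, GRCh38), 6 of 11 of HIST2 (chromosome 1, 149782689 to 149887364, HIST2H2BC having no GENCODE position), 1 of 2 of HIST3 and 0 of 1 of HIST4. With the title code as a block 0 members passed the test in this or any other comparison. Of all genes 1.05% passed here and 0.015 to 1.38% in the other comparisons. Of the 22 called members 21 kept their direction in that fit and 1, H1FX, did not. HIST1H2AC then had a log2 fold change of 1.99 (adjusted p = 0.0916), HIST1H3E of 1.60 (0.0678), HIST2H4A of 1.21 (0.196), HIST2H2BE of 1.07 (0.321) and HIST1H2BD of 0.94 (0.275).

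HIST1H2AC, an H2A gene of the HIST1 cluster (chromosome 6, 26124145 to 26139116, GRCh38), had the largest change of all members. Its level was 4.47 to 8.75 CPM in vehicle (median 5.13), 3.10 to 5.59 with Helicon4neg (median 4.41) and 7.43 to 13.2 with Helicon4 at 30 mpk (median 8.85). At 100 mpk the 5 libraries held 14.1, 15.1, 16.5, 17.5 and 26.7 CPM, all above every other library. The log2 fold change at 100 mpk was 1.49 ± 0.16 (SE; adjusted p = 1.01e-08), from 5.71 ± 1.38 (SD, n = 10) to 17.97 ± 5.07 CPM (SD, n = 5). Its promoter held matches to the CCAAT box, the TATAAA box and the octamer.

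HIST1H3E, which encodes a canonical H3, was at 2.65 to 4.71 CPM in vehicle (median 3.52), 2.06 to 3.30 with Helicon4neg (median 2.55) and 3.92 to 6.61 with Helicon4 at 30 mpk (median 5.95). At 100 mpk its libraries held 6.72, 6.76, 9.88, 10.2 and 11.4 CPM, above every other library. The log2 fold change was 1.08 ± 0.13 (SE; adjusted p = 1.42e-07).

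Among H2B genes, HIST1H2BD (chromosome 6, 26158146 to 26171349) was at 2.62 to 4.09 CPM in vehicle (median 3.18), 1.98 to 3.41 with Helicon4neg (median 2.44) and 3.90 to 5.51 with Helicon4 at 30 mpk (median 4.15). At 100 mpk it was at 6.403, 6.65, 6.83, 7.24 and 8.45 CPM, again above every other library, and rose by 0.94 ± 0.09 (log2 fold change, SE; adjusted p = 3.96e-09). GENCODE 29 annotates LARP1P1 on its strand and AL353759.1 on the other within its span. HIST1H2BG rose by 0.93 ± 0.10 (adjusted p = 4.41e-08), from a vehicle range of 1.28 to 2.27 to 3.61, 3.77, 4.62, 4.66 and 5.47 CPM.

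HIST2H2BE, an H2B gene of the HIST2 cluster (chromosome 1, 149884459 to 149886652), was at 23.5 to 38.9 CPM in vehicle (median 28.9), 25.1 to 35.6 with Helicon4neg (median 30.9) and 33.6 to 47.6 with Helicon4 at 30 mpk (median 41.1). At 100 mpk it was at 41.05, 47.1, 61.4, 67.7 and 68.0 CPM, above every vehicle library and overlapping the 30 mpk range. It rose by 0.92 ± 0.12 (log2 fold change, SE; adjusted p = 3.61e-07). HIST2H2BF rose by 0.52 (adjusted p = 0.00158), HIST1H2BN by 0.37 (0.00689), HIST1H2BK by 0.26 (0.0443) and HIST3H2BB by 0.26 (0.0378). In GENCODE 29, HIST1H2BN overlaps HIST1H2AL on its strand and HIST1H2AK and HIST1H2BPS2 on the other. HIST2H2BF overlaps AC243772.2 on its strand and FCGR1A on the other. Calls of HIST1H2BK and HIST3H2BB were lost in 10 and 7 of 15 fits that left out 1 library, with adjusted p up to 0.132 and 0.16.

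HIST2H4A, an H4 gene and the clustered gene with the highest mean CPM, was at 34.3 to 65.9 CPM in vehicle (median 45.04), 40.99 to 53.2 with Helicon4neg (median 47.8) and 50.1 to 71.5 with Helicon4 at 30 mpk (median 62.4). At 100 mpk the libraries held 77.5, 78.5, 82.2, 85.2 and 97.5 CPM, above every other library. It rose by 0.85 ± 0.11 (log2 fold change, SE; adjusted p = 5.56e-07). HIST2H4B gave 0.85 (adjusted p = 6.72e-07), but is not a separate measurement: all 50-base windows of HIST2H4A recur in it, and in every library the ratio of their values was 1.00 to 1.02. HIST2H3A and HIST2H3C (0.48 and 0.47, adjusted p = 0.0182 and 0.0201) likewise stood at ratios of 0.99 to 1.01, and each overlaps 1 of the HIST2H4 genes on the opposite strand. With each such pair counted once, 16 clustered genes rose and 1 fell. HIST2H2AA3 and HIST2H2AA4 also share all windows of this length, at ratios of 0.488 to 0.829, and neither passed the test.

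The canonical genes of the H1 family went in opposite directions. HIST1H1C, which encodes a linker histone, was at 5.09 to 7.59 CPM in vehicle and 7.90 to 14.6 at 100 mpk, with no overlap, and rose by 0.70 ± 0.16 (log2 fold change, SE; adjusted p = 0.00107). HIST1H1E, another linker histone, was at 0.450 to 1.65 CPM in vehicle and 0.187 to 0.434 at 100 mpk, and fell by 0.48 (adjusted p = 0.047). HIST1H1E rests on 7 to 27 reads per library at 100 mpk, and its call was lost in 12 of 15 fits that left out 1 library (adjusted p up to 0.128). HIST2H2AC, an H2A gene of the HIST2 cluster, was similarly low, at 0.391 to 1.28 CPM in vehicle and 0.387 to 0.766 at 100 mpk, and did not pass the test at 100 mpk (log2 fold change -0.23, adjusted p = 0.0537). That missed call depends on the setting, since HIST2H2AC was called lower with a pseudocount of 0.1 (adjusted p = 0.0453), edgeR (0.0349) and DESeq2 (0.0325). The remaining clustered genes that rose were HIST1H3H (0.75), HIST1H4H (0.71), HIST1H2AG (0.53) and HIST1H4I (0.49).

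Of the most abundant clustered genes, HIST3H2A and HIST2H2BC did not pass the test at 100 mpk. HIST3H2A, an H2A gene of the HIST3 cluster, had a log2 fold change of -0.15 (95% interval -0.465 to 0.162; adjusted p = 0.48). HIST2H2BC, which has no GENCODE 29 entry, had one of 0.19 (-0.065 to 0.437, adjusted p = 0.261).

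**Figure D2:**
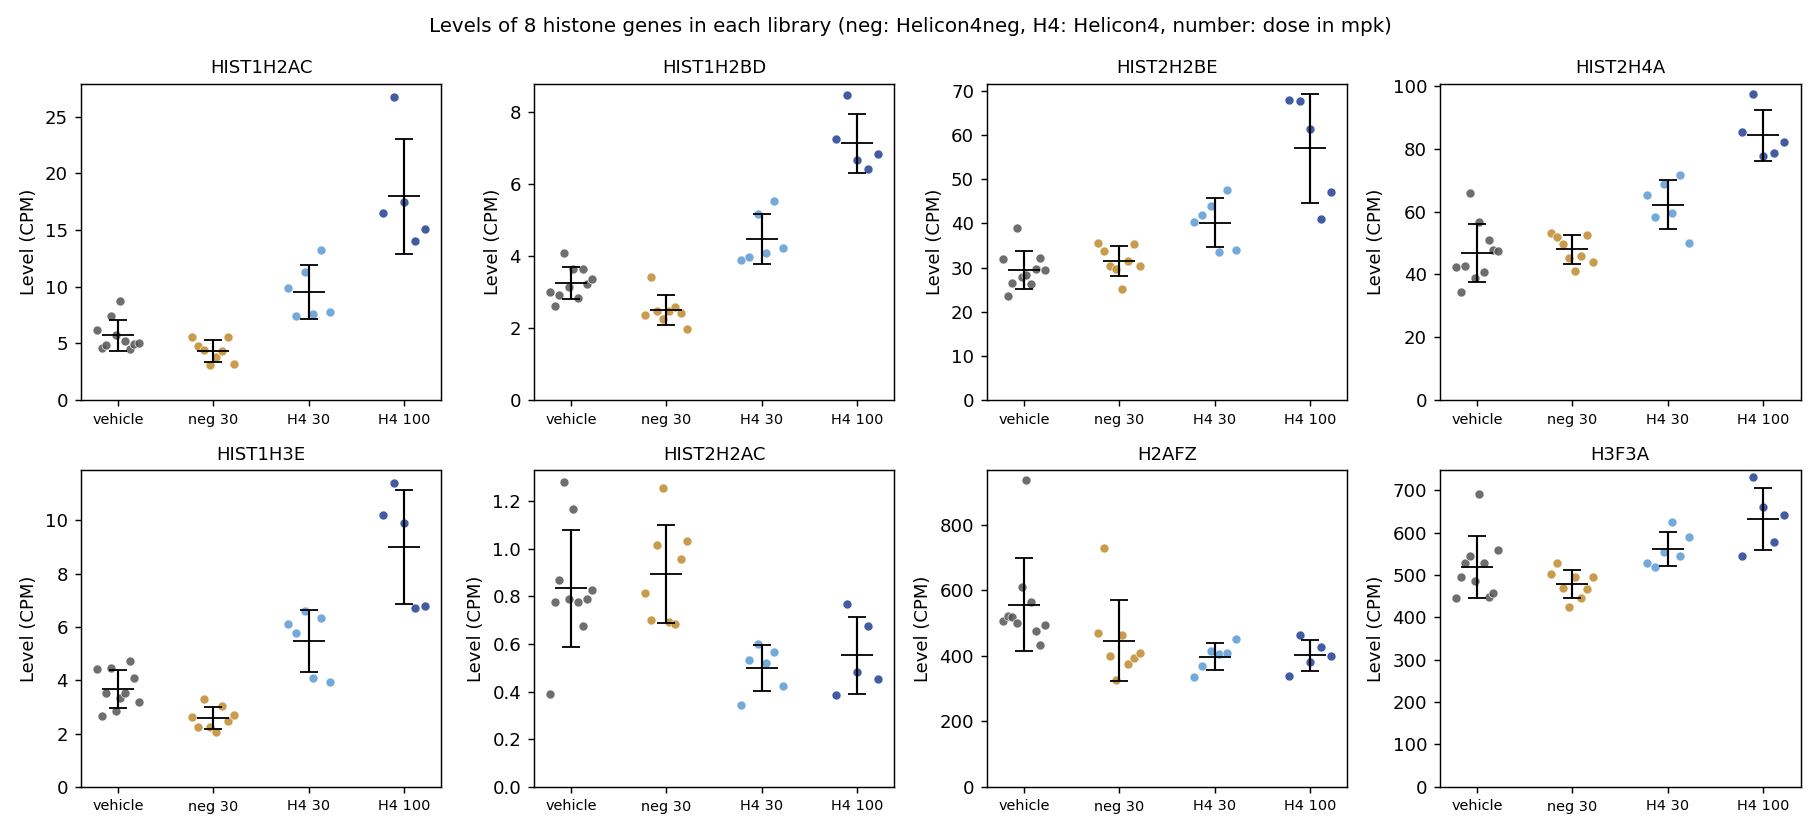
Levels in CPM of 8 histone genes in each library, by group (neg, Helicon4neg; H4, Helicon4; the number is the dose in mpk); points are libraries, and black bars are the mean and SD. HIST1H2AC, HIST1H2BD, HIST1H3E and HIST2H4A are higher in all 5 libraries of Helicon4 at 100 mpk than in any other library, while vehicle and 100 mpk overlap for HIST2H2AC, H2AFZ and H3F3A.

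Variant genes were called in both directions, and their groups overlapped. H3F3A was at 445 to 692 CPM in vehicle (median 512) and at 545, 579, 642, 661 and 732 CPM with Helicon4 at 100 mpk, and rose by 0.29 ± 0.09 (log2 fold change, SE; adjusted p = 0.012) although the groups overlapped. That call ended without Helicon4 100 mpk library 2 (adjusted p = 0.0608). H3F3B, the other H3.3 gene, had a log2 fold change of 0.19 (95% interval -0.001 to 0.386; adjusted p = 0.125), and H3F3C one of 0.10 (adjusted p = 0.736).

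H2AFZ, whose product H2A.Z marks promoters, was at 432 to 936 CPM in vehicle (median 512) and at 338, 381, 400, 426 and 464 CPM with Helicon4 at 100 mpk. It fell by 0.44 ± 0.14 (log2 fold change, SE; adjusted p = 0.0214), and its highest vehicle value came from library 6. Leaving out 1 of 2 libraries of the 100 mpk group (1 or 3) ended that call, with adjusted p up to 0.0616. H1FX, which encodes the linker histone H1.10, was at 186 to 374 CPM in vehicle (median 280.2) and at 142, 177, 182, 194 and 196 CPM at 100 mpk, and fell by 0.66 ± 0.20 (adjusted p = 0.0112). With the title code as a block its log2 fold change was 0.26 (adjusted p = 0.894).

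H2AFX, which encodes the H2A.X phosphorylated at DNA breaks and carries a stem-loop, had a log2 fold change of -0.50 (adjusted p = 0.074). It ranged from 104 to 221 CPM in vehicle and from 85.7 to 119 CPM at 100 mpk. H1F0 (-0.18), H2AFY and H2AFY2, the genes of macroH2A (-0.155 and -0.20), H2AFV, a second H2A.Z gene (-0.02), and H2AFJ (-0.08) did not pass the test.

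**Figure D3:**
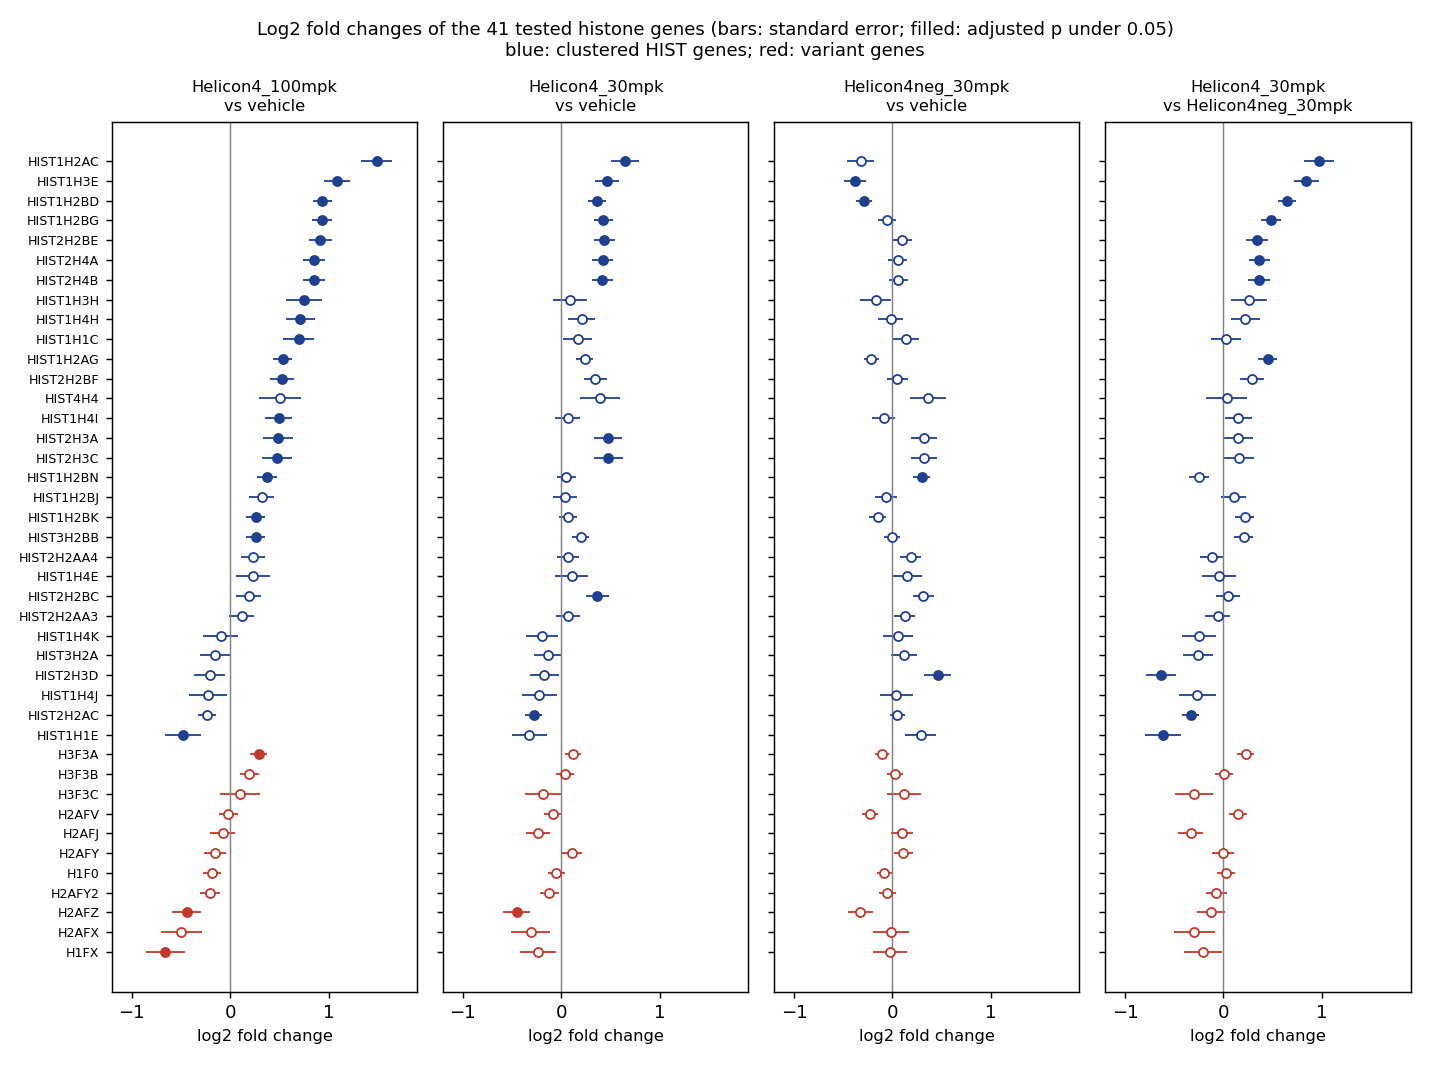
Log2 fold changes (horizontal axis) of the 41 tested members in 4 comparisons; bars are standard errors, blue marks clustered and red variant genes, and filled points have an adjusted p under 0.05. At 100 mpk 18 clustered genes lie to the right and 1 to the left of 0 with filled points, against 1 and 2 variant genes.

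At the lower dose of 30 mpk, 10 of 30 clustered genes rose against vehicle and 1 fell, where 11.1% of all genes passed, 5.86% higher and 5.22% lower, and 0 of 11 variant genes rose and 1 fell. The median log2 fold change was 0.18 over the clustered genes and -0.12 over the variant genes. HIST1H2AC rose by 0.65 (adjusted p = 0.00271), HIST1H3E by 0.46 (0.0109), HIST2H2BE by 0.44 (0.0067), HIST1H2BG by 0.43 (0.00362), HIST2H4A by 0.42 (0.00662) and HIST1H2BD by 0.36 (0.0051). HIST1H2BG was the sole gene of these whose groups did not overlap, a trait not counted over all genes. HIST2H3A, HIST2H3C (0.48 each) and HIST2H2BC (0.36) also rose. With each pair of identical copies counted once, 8 clustered genes rose. HIST2H2AC fell by 0.28 (adjusted p = 0.0322), at 0.345 to 0.601 CPM against 0.391 to 1.28 in vehicle, and H2AFZ fell by 0.45 (adjusted p = 0.0278). Leaving out 1 library ended the call of HIST2H2BC in 9 of 16 fits (adjusted p up to 0.128), of HIST2H3A and HIST2H3C in 5, of HIST2H2AC in 4 and of H2AFZ in 2. With the length slope of each library (the slope of log2 value on gene length) as a covariate these 5 calls also ended, with adjusted p of 0.0882 for HIST2H2BC, 0.0722 and 0.0718 for HIST2H3A and HIST2H3C, 0.0533 for HIST2H2AC and 0.0596 for H2AFZ. Leaving out Helicon4 30 mpk library 1 lowered the count of called members from 12 to 7, with 7 clustered genes higher. The count over all genes went from 1481 to 986 in that fit. A block for the title code left 0 members called and kept the direction of all 12 (smallest adjusted p = 0.987).

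Between the 2 doses of Helicon4, 7 of 30 clustered genes were higher at 100 mpk and 0 lower, where 3.6% of all genes passed, 1.74% higher and 1.86% lower, and 0 of 11 variant genes passed the test. They were HIST1H2AC (log2 difference 0.84, adjusted p = 0.00391), HIST1H3E (0.62, 0.0115), HIST1H2BD (0.57, 0.00121), HIST1H2BG (0.51, 0.0107), HIST2H2BE (0.48, 0.0319), HIST2H4A (0.44, 0.0401) and HIST2H4B (0.43, 0.0448). With identical copies counted once, 6 were higher. Calls of HIST2H2BE, HIST2H4A and HIST2H4B were lost in 6, 8 and 9 of 11 fits that left out 1 library. Their adjusted p then reached 0.142, 0.162 and 0.172. Within the title code that holds both doses, HIST1H2AC was at 14.1 to 26.7 CPM in 4 libraries at 100 mpk and at 7.79 CPM in the single library at 30 mpk, and HIST2H4A at 77.5 to 97.5 and 50.1 CPM. With the replicate number as a block 4 of the 7 were called, where 366 of all genes passed against 482. HIST2H2BE, HIST2H4A and HIST2H4B were not called (adjusted p = 0.0884, 0.119 and 0.123). Leaving out 1 library at a time gave counts from 3 to 9, with 209 to 704 of all genes called. Without Helicon4neg library 2 and vehicle library 6 the count was 11, where 7.87% of all genes passed. A block for the title code left 0 members called and kept the direction of all 7 (smallest adjusted p = 0.124).

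Helicon4neg against vehicle gave 2 higher and 2 lower clustered genes of 30, where 4.84% of all genes passed, 2.21% higher and 2.62% lower, and 0 variant genes. HIST1H3E fell by 0.38 (adjusted p = 0.0463) and HIST1H2BD by 0.28 (0.036), while HIST2H3D rose by 0.46 (0.0443) and HIST1H2BN by 0.30 (0.0499). With 1 library left out at a time the count ran from 0 to 8. With the replicate number as a block 1 member was called, where fewer of all genes passed than without it. Within the title code that holds 2 vehicle and 5 Helicon4neg libraries, HIST1H3E was at 3.17 to 4.10 and 2.06 to 3.30 CPM.

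The 2 compounds were compared at the matched dose of 30 mpk, 1 pair, with p adjusted over all genes. Helicon4 gave higher levels than Helicon4neg in 8 of 30 clustered genes and lower levels in 3, where 15.1% of all genes passed, 7.78% higher and 7.31% lower, and 0 of 11 variant genes passed the test. HIST1H2AC was higher by 0.97 (95% interval 0.66 to 1.28; adjusted p = 2.76e-05), at 7.43 to 13.2 against 3.10 to 5.59 CPM. HIST1H3E was higher by 0.84 (1.66e-05), HIST1H2BD by 0.65 (5.16e-06), HIST1H2BG by 0.48 (0.0014) and HIST1H2AG by 0.45 (0.00089), each with no overlap between the groups. HIST2H4A (0.36, 0.0209), HIST2H4B (0.36, 0.0237) and HIST2H2BE (0.34, 0.0411) were higher with overlapping groups, and missed the threshold with the replicate number as a block (adjusted p = 0.0764, 0.0826 and 0.0948). Leaving out 1 library ended the call of HIST2H2BE in 9 of 14 fits (adjusted p up to 0.113), and of HIST2H4A and HIST2H4B in 3. With identical copies counted once, 7 clustered genes were higher and 3 lower. A block for the title code left 0 members called and kept the direction of all 11 (smallest adjusted p = 0.0914).

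The 3 lower genes were of low level, with deposited lengths of 390 to 754 bases. HIST2H3D, an H3 gene, was lower by 0.63 (adjusted p = 0.00485), at 0.473 to 1.07 CPM against 0.928 to 3.50. HIST1H1E was lower by 0.61 (0.0196), and HIST2H2AC by 0.33 (0.0113), at 0.345 to 0.601 against 0.685 to 1.25 CPM with no overlap. Of the variant genes, the interval of the difference was -0.42 to 0.16 for H2AFZ, 0.05 to 0.40 for H3F3A (adjusted p = 0.0723) and -0.59 to -0.07 for H2AFJ (0.0792), and a missed threshold does not show that the compounds act alike on these genes. Within the title code that holds both compounds, HIST1H2AC was at 9.90 CPM in the single Helicon4 library and at 3.19 to 5.59 CPM in 3 Helicon4neg libraries. Leaving out Helicon4 30 mpk library 1 lowered the count of called members from 11 to 7, and that of all genes from 2018 to 1503.

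Clustered members differed by the annotated end of transcripts with a stem-loop match, a division chosen after the values were seen and given as a description. Of 18 tested clustered genes with a transcript that ran 100 bases or more past the stem-loop, 15 were higher than vehicle and 0 lower with Helicon4 at 100 mpk, with a median log2 fold change of 0.53. The 3 of them that did not pass the test were HIST1H4E, HIST3H2A and HIST4H4. Of the other 12 clustered genes, 3 rose (HIST1H1C, HIST1H2BD and HIST1H2BK) and 1 fell, with a median of 0.15. HIST1H2BD and HIST1H2BJ stand among these 12 although their gene spans reach beyond the transcripts measured. Genes whose annotation stops short of a stem-loop fall here too, so the division may partly sort by how complete the annotation is. At 30 mpk 8 of 18 and 2 of 12 rose, with medians of 0.37 and 0.05, and against Helicon4neg 7 of 18 and 1 of 12 were higher. The 18 include both copies of HIST2H4A and HIST2H4B and of HIST2H3A and HIST2H3C; with each pair counted once, 13 of 16 were higher at 100 mpk (median 0.53), 6 of 16 at 30 mpk (median 0.29) and 6 of 16 against Helicon4neg.

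Gene length moved with this division. Over all genes tested, 14.8% of 12718 genes with a deposited length of 1500 bases or more rose at 100 mpk, 6.26% of 559 genes from 600 up to 1500 bases and 2.08% of 96 shorter ones. The part of length in the division was not tested. With the length slope of each library as a covariate, 20 clustered genes were higher and 0 lower at 100 mpk than in vehicle, while at 30 mpk the higher ones went from 10 to 8; of all genes 38.2% and 16.8% then passed. Without Helicon4neg library 2 and vehicle library 6, 18 rose and 1 fell at 100 mpk, where 39.5% of all genes passed.

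**Figure D4:**
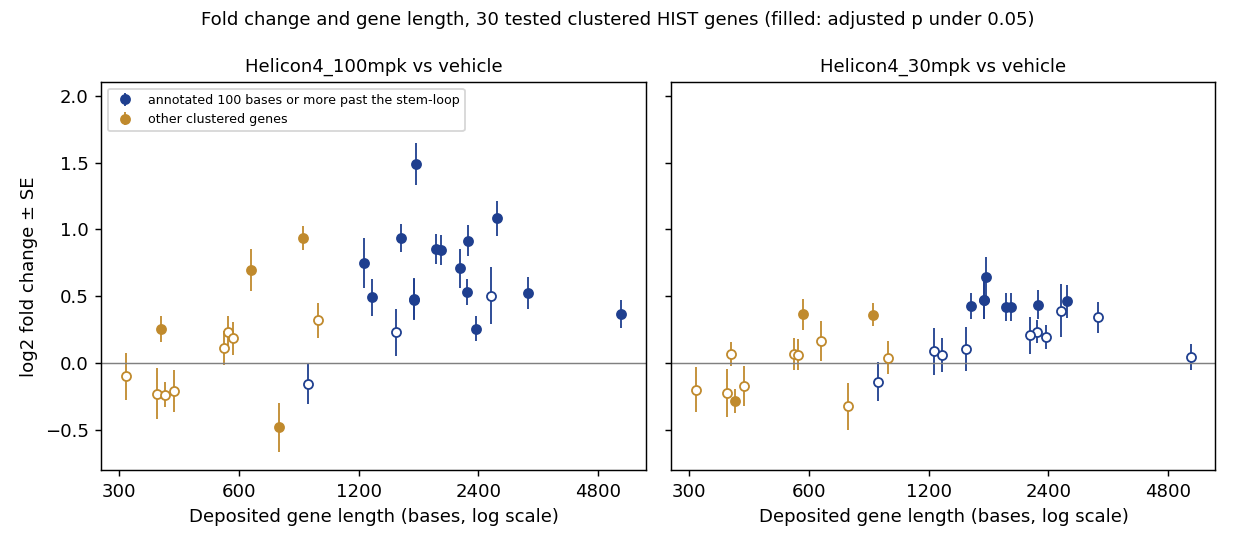
Log2 fold change with its SE against the deposited gene length in bases (log scale) for 30 tested clustered genes, at 100 mpk (left) and 30 mpk (right) against vehicle; blue marks genes annotated 100 bases or more past the stem-loop and ochre the others, and filled points have an adjusted p under 0.05. In the left panel 15 of 18 blue points are filled and above 0, against 3 of 12 of the others. The blue points include 2 pairs of identical copies. Blue rests on transcripts that hold a stem-loop match, and HIST1H2BD, of wider gene span, is among the others.

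Of 19 genes that process histone mRNA, 1 rose and 2 fell at 100 mpk against vehicle, where 14.3% of all genes were higher and 15.9% lower, with a median log2 fold change of -0.03. ZCCHC6, a terminal uridylyl transferase, rose by 0.48 (adjusted p = 0.00794), while SYMPK, a scaffold of the cleavage complex, fell by 0.38 (0.00723) and UPF1, a helicase of mRNA decay, fell by 0.28 (0.0327). SLBP, which binds the stem-loop, was at 164 ± 20 CPM (SD, n = 10) in vehicle and 146 ± 10.2 (n = 5) at 100 mpk, a log2 fold change of -0.16 (adjusted p = 0.168). NPAT, an activator of clustered histone transcription, had one of 0.16 (adjusted p = 0.544).

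On the list of histone chaperones and deposition factors, with 32 members, 11 fell and 1 rose at 100 mpk (all genes, 15.9% and 14.3%), with a median of -0.16. TONSL, which reads newly deposited histones, fell by 0.76 (adjusted p = 2.95e-05). CHAF1A and CHAF1B, subunits of the CAF-1 complex that deposits histones on replicated DNA, fell by 0.61 (6.86e-06) and 0.57 (3.64e-05). HAT1, which acetylates new H4, fell by 0.58 (0.000808) and ASF1B, an H3 and H4 chaperone, by 0.40 (0.0397). UBN2, of the complex that deposits H3.3, rose by 0.65 (8.99e-05). At 30 mpk against vehicle 1 of the 32 rose and 1 fell (UBN2 and HAT1), against 5.86% and 5.22% of all genes.

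On the S-phase list 14 of 22 genes fell at 100 mpk and 0 rose, where 15.9% of all genes fell; 8 did not pass, and the median was -0.36. CDT1, a replication licensing factor, fell by 1.15 (adjusted p = 3.62e-08), E2F1 by 0.89 (0.000182), CDC45 by 0.74 (3.67e-06) and MCM3 by 0.63 (2.9e-08). PCNA, the replication clamp, fell by 0.57 (adjusted p = 0.00245). The summed level of the list was 3003 to 4058 CPM in vehicle and 2384 to 3080 at 100 mpk. At 30 mpk 6 were lower than vehicle and 0 higher (all genes, 5.22% and 5.86%). Against Helicon4neg 2 of the 22 were lower and 1 higher, near the 7.31% and 7.78% of all genes. Of 10 genes of the G2 and M phases, 2 fell at 100 mpk (AURKB and PLK1) and 0 rose, near the 15.9% of all genes that fell. CENPA, the centromeric H3 gene, had a log2 fold change of -0.28 (adjusted p = 0.0672).

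Markers used for host cell types were few in the table, and were read on human genes. The fibroblast list had 4 of 7 markers, summing to 29.1 to 42.8 CPM in vehicle and 41.1 to 49.97 at 100 mpk, where COL1A1 and PDGFRA rose and PDGFRB fell. The endothelial list had 2 of 6, lacking PECAM1, CDH5, VWF and KDR. Their sum was 38.7 to 94.2 CPM in vehicle and 23.9 to 39.2 CPM at 100 mpk, and both fell. The leukocyte list had 2 of 6, at 23.8 to 41.1 and 20.7 to 34.4 CPM, and 1 fell. Over all genes tested, 14.3% rose and 15.9% fell. In bulk tumors, fewer cells of a type, less RNA per cell and a change in the human tumor cells themselves cannot be told apart. The part of host cells in the histone changes was not tested.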

How the data were processed

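RNA-seq of 29 xenograft libraries was processed by the submitters with Trimmomatic 0.39, STAR 2.7.7a, Subread featureCounts 2.4.2, edgeR 4.0.2 and the build GRCh38, per the submitters' processing notes. Settings and annotation are not given in the sources used here. The labels leave the library kit unclear and mention no mouse genome, and host reads may have been assigned to human genes. The authors deposited 1 table of CPM with a further scaling between libraries, used here as a signal. A scan over divisors of the 2500 lowest values above 0 gave the size of 1 read in all 29 libraries, with which 100% of the values in each were whole within 0.05 reads. An independent check of the table found that step in 11 of the 29 columns and not in the other 18, so the read numbers of those 18 rest on the scan alone, and edgeR and DESeq2 on recovered reads serve only as alternatives.

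Testing used limma 3.58.1 (R 4.3.3; trend and robust options) on log2(CPM + 1), for the 13373 of 13492 genes that reached 1 CPM in 5 or more libraries. The 4 groups entered 1 fit without covariates. Tests were two-sided, with Benjamini-Hochberg adjustment over these genes and a threshold of 0.05, and the procedure was tested on simulated data. Errors are the SE of a log2 fold change and the SD of CPM between libraries. Same-numbered libraries of different groups were compared to see whether the numbers pair them: correlations of their residuals lay between -0.70 and 0.52, 15 of 35 above 0.1, so the numbers were not taken as pairs.

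Named genes were all tested variant members, the clustered members with the 8 smallest adjusted p per comparison and with the 6 highest mean CPM, up to 4 genes per list by adjusted p together with SLBP, NPAT, CENPA, ASF1B and PCNA, and AXIN2, NKD1 and DKK4 as a check of the labels. Other members named were chosen after their values were seen. The members and lists were chosen with earlier results of these data known. Stem-loops were searched in GENCODE 29 transcripts, which are not known to be the authors' annotation, and promoters came from RefSeq. Alternatives were a pseudocount of 0.1, no filter or one of 5 CPM, TMM factors, the 2 compared groups alone, a block for the replicate number or for the title code, edgeR 4.0.16, DESeq2 1.42.0, a covariate for the length slope, a minimum of 1.5-fold, leaving out single libraries, leaving out Helicon4neg library 2 with vehicle library 6, and counting identical copies once. The last was chosen after seeing the data.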

Additional observations from a re-analysis of the deposited data

Results flagged for a closer look

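In 24 of 164 sets of values (41 members in 4 groups), the highest or lowest library lay further from the others than Dixon's 95% limit, where chance gives about 1 in 20. Helicon4neg library 2 was the highest of its group in 16 of them. It held 818.8 CPM of H1F0, 677.0 of H1FX, 163.5 of H2AFV, 392.2 of H2AFX, 599.1 of H2AFY, 72.24 of H2AFY2, 730.8 of H2AFZ and 7.949 of H3F3C. Among the clustered genes it held 13.47 CPM of HIST1H1C, 3.413 of HIST1H2BD, 2.712 of HIST1H2BJ, 7.949 of HIST1H3H, 15.15 of HIST1H4I, 6.312 of HIST1H4J, 6.125 of HIST1H4K and 42.6 of HIST3H2A. Vehicle library 6 was the highest of its group for H2AFV (173.3 CPM), H2AFZ (936.0) and H3F3A (692.1). These libraries also had the lowest length slopes of all 29, and the part of that in these values was not tested.

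In Helicon4 at 100 mpk, library 2 was the highest for HIST1H2AC (26.74 CPM), library 4 the highest for HIST1H4J (2.84) and HIST1H4K (2.969), and library 3 the lowest for HIST1H1E (0.1869). Helicon4neg library 5 was the lowest for HIST2H2AA3 (5.518 CPM).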

How the results depend on the processing

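Counts of called members were 22 with Helicon4 at 100 mpk against vehicle, 12 at 30 mpk, 4 with Helicon4neg, 11 between the compounds at 30 mpk and 7 between the doses. With the title code as a block each became 0, where 1.05, 0.553, 0.015, 1.38 and 0.0748% of all genes passed. H1FX at 100 mpk changed sign to 0.264, and the other called members kept their direction. A minimum of 1.5-fold gave 11, 1, 0, 5 and 2. It called 1258, 479, 60, 577 and 175 of all genes, against 4043, 1481, 647, 2018 and 482 without it. The count with Helicon4neg was the least stable. It was 2 with a pseudocount of 0.1, 1 with a 5 CPM filter, 1 with the 2 groups alone and 2 with edgeR. These fits called 654, 459, 374 and 673 of all genes, against 647. HIST1H2BN and HIST2H3D do not pass the 5 CPM filter and were not tested in that fit. With the length slope covariate the count was 9, and 17.8% of all genes were called against 4.84%. A 5 CPM filter gave 6 between the compounds, where 1441 of all genes passed. HIST1H1E, HIST1H2AG, HIST1H2BG, HIST2H2AC and HIST2H3D do not pass that filter, so they were not tested in that fit. With the length slope the count fell to 8 at 30 mpk and rose to 14 between the doses, where 15% of all genes were then called against 3.6%. Without Helicon4neg library 2 and vehicle library 6, which stand apart, the counts were 24, 12, 6, 13 and 11, with 39.5, 16.4, 15.2, 19.3 and 7.87% of all genes called. The mean summed clustered level in vehicle, 262.2 CPM, was 215.5 without HIST2H4A and 211.1 with identical copies counted once. At 100 mpk the mean of 418.4 CPM became 334.1 and 328.3, and under both changes the range at 100 mpk overlapped that of vehicle.

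With the replicate number as a block the counts were 21, 12, 1, 8 and 4. Of all genes this block left 4431 called at 100 mpk, 1519 at 30 mpk, 1605 between the compounds and 366 between the doses. With Helicon4neg fewer of all genes passed than the 647 without the block. The replicate numbers are not known to pair the libraries. Leaving out 1 library gave 16 to 24 at 100 mpk, 7 to 13 at 30 mpk, 0 to 8 with Helicon4neg, 7 to 12 between the compounds and 3 to 9 between the doses. In the same order, these fits called 2964 to 4381, 986 to 1623, 393 to 2595, 1503 to 2299 and 209 to 704 of all genes. The lowest counts at 30 mpk and between the compounds came without Helicon4 30 mpk library 1. Between the doses the count moved by over 1.5 times without Helicon4 30 mpk library 2, 4 or 6 or Helicon4 100 mpk library 2 or 3, and with Helicon4neg in 17 of 18 such fits. HIST1H1E and HIST2H2AC rest on few reads, which limits their precision.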
